A study of Mus musculus with 8 samples.

Results

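The genes described here are 10 components of the transforming growth factor beta (TGF-beta) system. They are the ligand genes Tgfb1, Tgfb2 and Tgfb3, the receptor genes Tgfbr1, Tgfbr2 and Tgfbr3, and the genes of the latent TGF-beta binding proteins, Ltbp1, Ltbp2, Ltbp3 and Ltbp4. They were taken by symbol from the table of raw counts and make up 10 of its 43346 genes. The choice was made with earlier results of these data known. All 10 were among the 15511 genes that passed the filter on low counts, and all 10 also reached that filter's level of 1.09 CPM (counts scaled to the library total) in at least 2 skull libraries, so none entered the test through femur alone.

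TGF-beta is stored in bone matrix in large amounts and is known there for linking bone resorption to bone formation and for acting on osteocytes and their perilacunar matrix. Each ligand is made as a precursor whose cleaved propeptide, the latency-associated peptide, stays bound to the growth factor and keeps it inactive. A latent TGF-beta binding protein (LTBP) can be attached to that peptide and anchors the complex to fibrillin and fibronectin fibres, from which integrins, proteases or acid release the ligand. Free ligand binds the type II receptor TGFBR2, which recruits and phosphorylates the type I receptor TGFBR1, and TGFBR1 phosphorylates SMAD2 and SMAD3. TGFBR3, or betaglycan, is a proteoglycan that binds ligand and presents it to the signalling pair.

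RNA sequencing was done on osteocyte-enriched fractions of 3 bones of C57BL/6 mice aged 12 weeks, for which no treatment or genetic change is recorded. There were 3 femur libraries (numbered 1, 2 and 4), 3 frontal bone libraries (1, 2 and 4) and 2 parietal bone libraries (2 and 4), and the study set out to compare the transcriptomes of osteocytes from these skull and limb bones. Frontal and parietal bone together are called calvaria below, with 5 libraries. The labels do not tie a library to an animal, so the p-values describe the spread between libraries, which may be technical in part.

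Library totals lay between 6259229 and 13461622 gene counts. The osteocyte label was checked against 7 markers (Dmp1, Sost, Phex, Mepe, Pdpn, Fam20c and Fgf23), none of which was at 0 in any bone. Their summed level was 23414 to 48848 CPM in femur and 698 to 1345 CPM in calvaria. Dmp1 made up most of the femur sum, with a mean of 35309 of 39714 CPM, and 528 of 1100 CPM in calvaria. Markers of marrow blood cells moved the other way, with granulocyte genes summing to 17323 to 42874 CPM in femur and 56644 to 86041 CPM in calvaria. In these bulk samples, fewer cells of a type and less RNA per cell cannot be told apart.

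All 10 genes were lower in calvaria than in femur, and in all 10 every calvarial library lay below every femur library. Among all genes tested, 31.4% were called lower in calvaria and 27.5% had every calvarial library below every femur library. Against femur, 10 of 10 were called lower in frontal bone, where 28.5% of all genes were, and 9 of 10 in parietal bone, where 28.6% were. The exception in parietal bone was Tgfbr3. The median log2 fold change of calvaria against femur was -3.36 for the ligands, -1.23 for the receptors and -3.74 for the LTBP genes, beside 0.01 for all genes tested. Frontal and parietal comparisons use the same 3 femur libraries and so are not independent of each other.

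**Figure D1:**
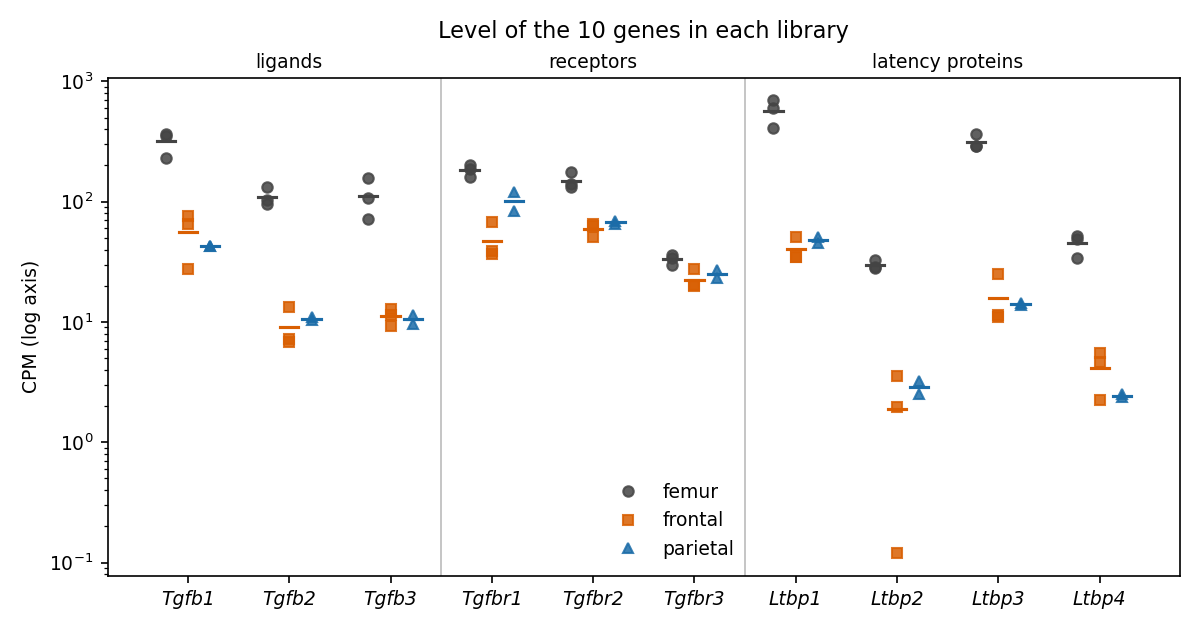
Level of each gene in each library, in CPM on a log axis, with femur as circles, frontal bone as squares and parietal bone as triangles; short lines are means. All calvarial points lie below the femur points of the same gene, with the narrowest gap for Tgfbr3 and the lowest point for Ltbp2 in frontal library 1 at 0.12 CPM.

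The regions before the start sites of these genes are shown first, as a description, since the pathway acts on promoters through SMAD proteins. The part of these regions in the differences between bones was not tested. RefSeq (GRCm38.p6) windows were at hand for 8 of the 10 genes, 12 windows in all because Tgfbr1, Ltbp1 and Ltbp4 have more than 1 start. For each role, the window of the gene with the largest fall in calvaria among those with a window is printed, as the 250 bases before its most upstream start, 5′ to 3′ on the gene's strand. Capitals mark the SMAD-binding letters CAGAC and the GC box GGGCGG, the binding letters of SP1-type factors, on either strand.

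The Tgfb2 window is chr1:186705990-186706239 on the minus strand and holds 2 CAGAC matches, no GC box and 1 TATA box (TATAAA).
Tgfb2: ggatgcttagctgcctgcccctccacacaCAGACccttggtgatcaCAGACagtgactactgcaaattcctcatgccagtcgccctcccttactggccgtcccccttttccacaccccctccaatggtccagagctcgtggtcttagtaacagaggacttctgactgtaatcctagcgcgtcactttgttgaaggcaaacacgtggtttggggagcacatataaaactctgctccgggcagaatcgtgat
The Tgfbr1 window is chr4:47352972-47353221 on the plus strand, has a GC content of 74.8% with 29 CpG dinucleotides, and holds 2 GC boxes and no CAGAC.
Tgfbr1: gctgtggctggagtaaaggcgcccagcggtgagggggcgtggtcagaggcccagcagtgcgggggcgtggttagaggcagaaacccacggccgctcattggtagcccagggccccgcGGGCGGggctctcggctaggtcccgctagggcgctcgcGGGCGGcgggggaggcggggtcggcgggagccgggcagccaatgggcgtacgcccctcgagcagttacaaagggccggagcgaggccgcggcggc
The Ltbp3 window is chr19:5740650-5740899 on the plus strand, has a GC content of 47.2% with 2 CpG dinucleotides, and holds 1 CAGAC and no GC box.
Ltbp3: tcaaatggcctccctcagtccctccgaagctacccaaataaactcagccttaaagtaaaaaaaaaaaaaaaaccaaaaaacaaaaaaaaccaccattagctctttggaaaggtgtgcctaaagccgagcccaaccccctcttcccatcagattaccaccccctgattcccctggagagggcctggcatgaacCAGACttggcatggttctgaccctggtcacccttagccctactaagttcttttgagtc

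The 12 windows did not share 1 makeup. CAGAC occurred in 7 of the 12 and GGGCGG in 6, while 42.2% and 32.7% of all 32851 windows of this length hold them. The AP-1 letters TGANTCA were in none of the 12 (6.75% of all windows), the RUNX letters TGTGGT in 1 (14.0% of all), the downstream start of Ltbp1, and TATAAA in 1 (12.4% of all), that of Tgfb2. Tgfb1 had 5 GC boxes at a GC content of 75.2%, and Ltbp4 windows had 3, 5 and 7. The last 2 of these share 235 bases, so that the count of 6 windows with a GC box holds 1 stretch more than once. These matches are descriptions of letters, and binding at these sites was not measured.

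The 3 ligands fell by 6.45- to 11.3-fold from femur to calvaria. Tgfb1 (chromosome 7, 25687002 to 25705077, plus strand), the isoform known as the main one in bone matrix, was at 353, 368 and 232 CPM in femur libraries 1, 2 and 4. It was at 64.8, 76.5 and 27.4 CPM in frontal libraries 1, 2 and 4 and at 43.1 and 42.8 CPM in parietal libraries 2 and 4. The groups did not overlap, although frontal library 4 stood well under the other frontal libraries and femur library 4 under the other femur libraries. The fold change of calvaria against femur was -2.69 ± 0.28 on the log2 scale (SE, edgeR adjusted p = 1.30e-05), and 3.45% of genes tested had as low a value.

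Tgfb2 (chromosome 1, 186622792 to 186705989, minus strand), the isoform known for its part in skull and craniofacial development, showed the widest gap of the ligands. Femur libraries 1, 2 and 4 held 132, 104 and 94.9 CPM. Frontal libraries 1, 2 and 4 held 6.81, 7.27 and 13.2 CPM, and parietal libraries 10.4 and 10.9 CPM. The highest calvarial value, in frontal library 4, was thus far under the lowest femur value. The log2 fold change was -3.50 ± 0.20 (edgeR adjusted p = 1.07e-07), an 11.3-fold lower level.

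Tgfb3 (chromosome 12, 86056745 to 86079041, minus strand), an isoform known for its role in palate fusion, was at 156, 107 and 72.1 CPM in femur. Its calvarial libraries were close together, at 12.8, 11.5 and 9.27 CPM in frontal and 9.71 and 11.4 CPM in parietal bone. Within the groups, most of the spread of this gene was thus between the femur libraries, while the calvarial ones differed little. Calvaria was 10.2-fold lower, with a log2 fold change of -3.36 ± 0.22 (edgeR adjusted p = 3.02e-07). Each ligand was also called lower in frontal and in parietal bone taken alone, with log2 fold changes of -2.49 and -2.89 for Tgfb1, -3.62 and -3.37 for Tgfb2, and -3.31 and -3.40 for Tgfb3.

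Levels of different genes were compared as CPM per kilobase of exon. The length used is that of all annotated exons of a gene together, which can exceed that of the transcripts present. On this scale, Tgfb1 was the most abundant ligand in all 3 bones. It made up 55.0% ± 4.58 (SD, n = 3) of the summed ligand level in femur and 65.4% ± 9.54 (n = 5) in calvaria, with overlapping ranges of 50.4 to 59.5% and 52.0 to 76.6%. Tgfb2 made up 16.9% ± 2.46 and 12.4% ± 6.36, and Tgfb3 28.1% ± 4.40 and 22.2% ± 3.50. The makeup of the ligand pool therefore did not separate calvaria as a whole from femur by range. Frontal bone alone overlapped with femur in all 3 shares. In the 2 parietal libraries each share lay outside its femur range, with Tgfb1 at 61.7 to 64.7%. Tgfb2 was there at 13.6 to 13.7% (femur 14.7 to 19.6%) and Tgfb3 at 21.7 to 24.6% (femur 25.4 to 33.2%). The summed level did separate calvaria from femur, at 83.8 to 139 CPM per kb in femur and 10.4 to 19.8 in calvaria.

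The receptors were also lower in calvaria, by 1.39- to 2.63-fold. Tgfbr1 (chromosome 4, 47353222 to 47414931, plus strand), the type I receptor kinase, was at 203, 188 and 159 CPM in femur libraries 1, 2 and 4. It was at 36.6, 67.2 and 38.6 CPM in frontal bone and at 84.0 and 120 CPM in parietal bone. The 3 bones thus formed 3 groups without overlap, with parietal bone between frontal bone and femur. Against femur, the log2 fold change was -1.39 ± 0.20 for calvaria (edgeR adjusted p = 8.70e-05), -1.94 ± 0.23 for frontal bone (3.54e-05) and -0.84 ± 0.26 for parietal bone (0.0145). The parietal call was lost without parietal library 2, at -0.64 with an adjusted p of 0.144.

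Tgfbr2 (chromosome 9, 116084293 to 116175360, minus strand), the type II receptor that binds ligand first, was at 175, 133 and 139 CPM in femur. It was at 51.2, 63.0 and 64.9 CPM in frontal bone and 65.6 and 69.2 CPM in parietal bone. No calvarial library was above 69.2 CPM and no femur library below 133 CPM. The level in calvaria was 2.34-fold lower (log2 -1.23 ± 0.13, edgeR adjusted p = 8.79e-06), with -1.32 in frontal and -1.14 in parietal bone, both called.

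Tgfbr3 (chromosome 5, 107106570 to 107289629, minus strand), the coreceptor betaglycan, had the smallest difference of the 10 genes. Its libraries were at 34.2, 36.0 and 29.5 CPM in femur, 20.0, 27.4 and 20.2 CPM in frontal bone and 23.4 and 26.9 CPM in parietal bone. The groups did not overlap, but femur library 4 and frontal library 2 were close. The log2 fold change was -0.48 ± 0.15 for calvaria (edgeR adjusted p = 0.0176) and -0.56 ± 0.17 for frontal bone (0.0174), and 33.0% of genes tested had as low a value for calvaria. In parietal bone it was -0.40 ± 0.19 and did not pass (adjusted p = 0.0948). The calvarial call was lost under scaling by library size only (-0.38, adjusted p = 0.0621), after removal of length and GC trends (-0.27, 0.128, and -0.28, 0.152 with a replicate block as well), without femur library 2 (-0.43, 0.0739) and without parietal library 2 (-0.44, 0.0661). The frontal call was lost under scaling by library size only, with a replicate block and trends removed, and without femur library 2, frontal library 1 or frontal library 4 (adjusted p = 0.0736, 0.0656, 0.0618, 0.0696 and 0.0624).

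The LTBP genes were 12.6-fold (Ltbp2) to 20.9-fold (Ltbp3) lower in calvaria, further than the ligands in the fit without a correction for length and GC content. Ltbp1 (chromosome 17, 75005568 to 75392512, plus strand), whose protein binds the latent forms of all 3 ligands, was at 694, 605 and 406 CPM in femur. It fell to 34.7, 51.1 and 34.4 CPM in frontal bone and 50.9 and 45.7 CPM in parietal bone. In this gene, too, no calvarial library came near the femur libraries. Its log2 fold change was -3.69 ± 0.19 (edgeR adjusted p = 6.44e-08). The gene has a long and a short form from separate start sites, which counts per gene do not separate.

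Ltbp3 (chromosome 19, 5740904 to 5758532, plus strand), known from skeletal and dental defects when it is lost, was at 366, 289 and 288 CPM in femur libraries 1, 2 and 4. Frontal libraries 1, 2 and 4 were at 11.4, 25.1 and 11.0 CPM and parietal libraries at 14.3 and 13.8 CPM. Frontal library 2 was the highest of the calvarial libraries and the other 4 lay close together. The log2 fold change of -4.39 ± 0.24 (edgeR adjusted p = 9.25e-08) was matched or passed by only 0.638% of genes tested.

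Ltbp4 (chromosome 7, 27305136 to 27337692, minus strand), known for elastic fibre assembly and for binding latent TGF-beta 1, was at 51.6, 34.1 and 49.2 CPM in femur. It was at 4.66, 5.54 and 2.25 CPM in frontal bone and 2.37 and 2.52 CPM in parietal bone. The calvarial libraries were 13.9-fold lower by the fit (log2 -3.79 ± 0.25, edgeR adjusted p = 2.50e-07), and frontal library 4 was close to the parietal libraries. Frontal and parietal bone taken alone differed from femur by -3.40 ± 0.28 and -4.19 ± 0.35.

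Ltbp2 (chromosome 12, 84783212 to 84876532, minus strand) is the family member known not to bind latent TGF-beta and to associate with fibrillin fibres. Its level was 33.0, 27.9 and 28.6 CPM in femur, from 192, 295 and 245 counts. Frontal libraries 1, 2 and 4 held 1, 37 and 14 counts, or 0.12, 3.54 and 1.97 CPM, and both parietal libraries held 33 counts, or 2.52 and 3.20 CPM. Frontal library 1 thus stood far under the others, and these counts make the calvarial level of this gene the least precise of the 10. Calvaria had a log2 fold change of -3.65 ± 0.40 (edgeR adjusted p = 1.65e-05). That of frontal bone was -3.92 ± 0.50, and -4.89 without frontal library 2.

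The LTBP values moved with a correction for transcript length and GC content, by more than those of the other genes. Across all genes tested, the fifth with the longest exons had a median log2 fold change of -0.41 for calvaria against femur and the fifth with the highest GC content -0.44. With both trends removed, the log2 fold changes of Ltbp1, Ltbp2, Ltbp3 and Ltbp4 were -3.06, -2.62, -3.33 and -2.53, and all 4 remained called. Tgfb2 was then the lowest, at -3.42. Tgfb3, at -3.30, lay below Ltbp1, Ltbp2 and Ltbp4 but not below Ltbp3. Tgfb1 lay between -2.88 and -2.37 over all alternatives. The Ltbp genes have 6.46 to 10.69 kb of exon at 52.7 to 62.2% GC, and the part of length and GC in their difference was otherwise not tested.

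**Figure D2:**
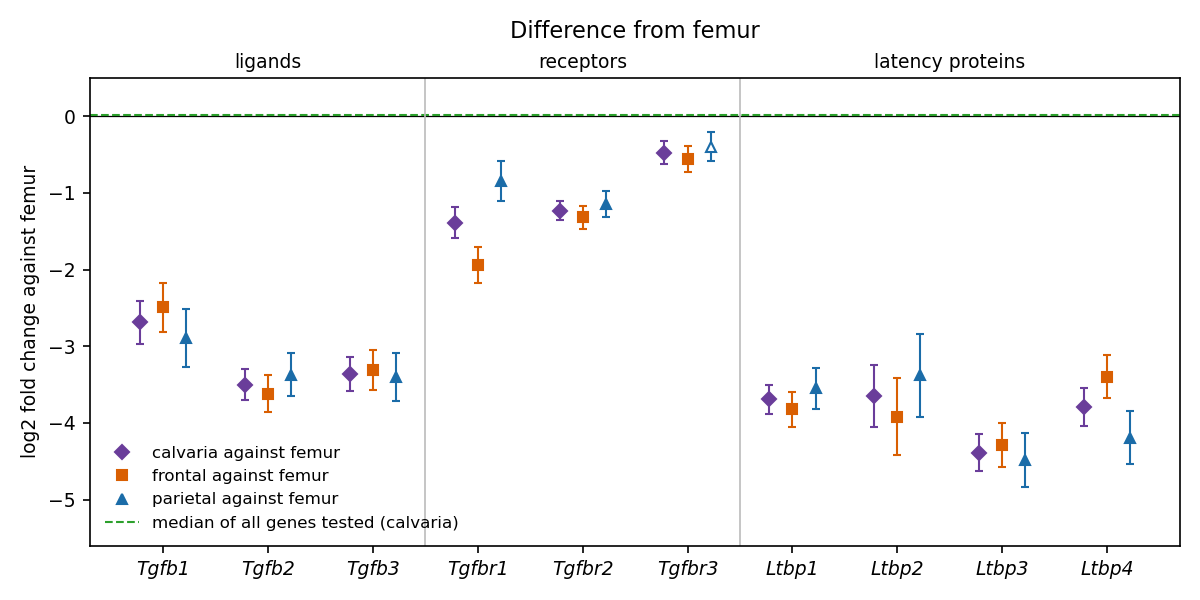
Log2 fold change of each gene against femur with its standard error, for calvaria (diamonds), frontal bone (squares) and parietal bone (triangles); the open symbol did not pass at an adjusted p under 0.05, and the dashed line is the median of all genes tested, 0.01. Receptors lie between -1.94 and -0.40, and ligands and LTBP genes between -4.48 and -2.49.

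The order of levels, which depends on the exon lengths used, differed between the bones when genes were compared per kilobase of exon. In femur, Tgfb1 (63.0 ± 14.8 CPM per kb, SD, n = 3) and Ltbp1 (53.1 ± 13.8) came first with overlapping ranges, followed by Ltbp3, Tgfb3 and Tgfbr1. There, Ltbp4, Tgfbr3 and Ltbp2 came last, at 6.96 ± 1.47, 5.08 ± 0.51 and 3.64 ± 0.341. Frontal bone had Tgfb1 first (11.1 ± 5.09), overlapping with Tgfbr2 (7.29 ± 0.908) and Tgfbr1 (7.26 ± 2.62). In parietal bone the first was Tgfbr1 (15.6 ± 3.94, n = 2), above Tgfb1 (8.52 ± 0.0469) and Tgfbr2 (8.23 ± 0.309) without overlap. Ltbp3 took the third place in femur (34.7 ± 4.94), the seventh in frontal bone (1.74 ± 0.891) and the eighth in parietal bone (1.55 ± 0.0406), and Ltbp4 and Ltbp2 were the last pair in both skull bones.

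The balance between the roles therefore differed between the bones. The summed receptor level per unit of summed ligand level was 0.414, 0.411 and 0.547 in femur libraries 1, 2 and 4. It was 0.837, 1.12 and 1.62 in frontal bone and 1.85 and 2.25 in parietal bone. The receptor sum was thus below the ligand sum in every femur library and above it in 4 of 5 calvarial libraries. Whether a ratio lies above or below 1 depends on the exon lengths used. The summed LTBP level per ligand was 0.844, 0.792 and 0.965 in femur, 0.294, 0.446 and 0.480 in frontal bone and 0.531 and 0.478 in parietal bone. Neither ratio overlapped between femur and calvaria, and no test was made on these sums. The LTBP ratio rests on values that the correction for length and GC content reduced by 1.55 to 2.40 times in the fold change of calvaria against femur, and it was not recomputed with that correction.

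**Figure D3:**
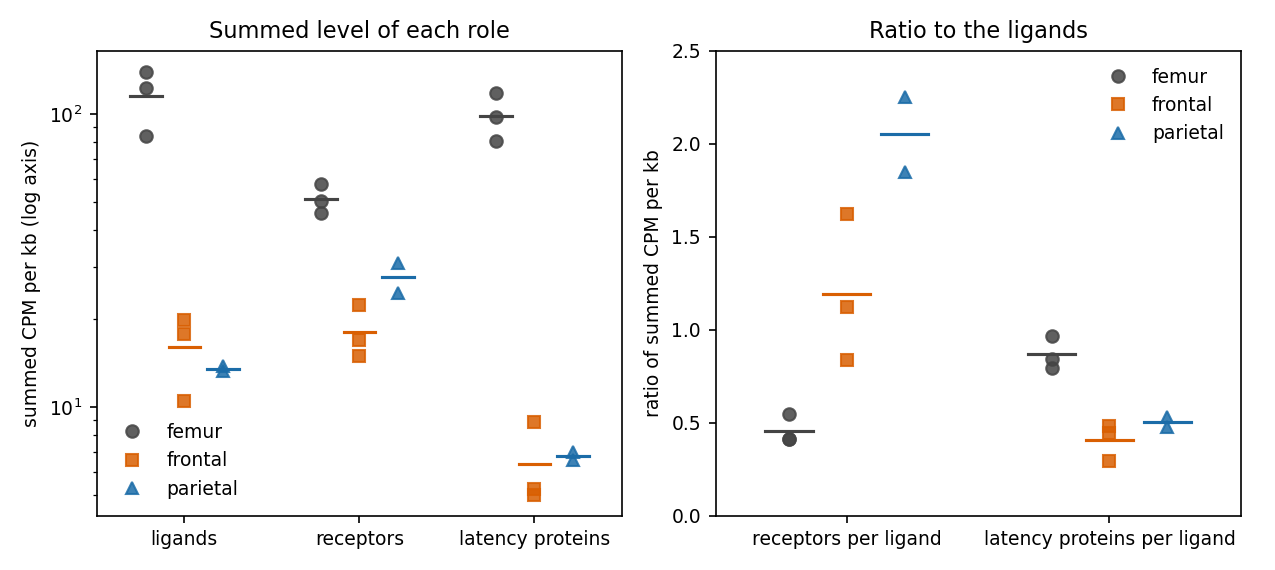
Left, summed level of ligands, receptors and LTBP genes in each library, in CPM per kb on a log axis; right, ratio of the receptor sum and of the LTBP sum to the ligand sum, on a linear axis; short lines are means. Receptors per ligand are at 0.411 to 0.547 in femur and 0.837 to 2.25 in calvaria, and LTBP per ligand at 0.792 to 0.965 and 0.294 to 0.531.

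Between frontal and parietal bone, 1 of the 10 genes was called, Tgfbr1. That count is near the share of all genes tested that were called there in either direction, 7.21%. Tgfbr1 was lower in frontal bone (47.5 ± 17.1 CPM, SD, n = 3) than in parietal bone (102 ± 25.7 CPM, n = 2). Its highest frontal library was at 67.2 and its lowest parietal library at 84.0 CPM. The log2 fold change of frontal against parietal bone was -1.10 ± 0.25 (edgeR adjusted p = 0.033), a 2.14-fold lower level. This call was not stable. It was lost without femur library 2 (adjusted p = 0.0605), without frontal library 1 or 4 (0.139 and 0.0779) and without parietal library 2 or 4 (0.154 and 0.279). It was also lost under scaling by library size only (0.0509), in a fit of the skull bones alone (0.0571) and after removal of length and GC trends (0.0695). With the replicate number as a block it was lost as well, at an adjusted p of 0.103, or 0.175 with the trends also removed. Over all alternatives the adjusted p ran from 2.27e-06 to 0.279 and the log2 fold change from -1.44 to -0.77.

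Of the other 9 genes, none passed between the skull bones. Tgfbr2 alone among them had no overlap, and the share of all genes separated in this way was not counted. For Tgfbr2, frontal bone was lower by 0.18 ± 0.16 on the log2 scale, a difference about the size of its error (log2 fold change -0.18, edgeR adjusted p = 0.511). Ltbp4 had the largest value, 0.79 ± 0.36 toward frontal bone (adjusted p = 0.171). Tgfb1 was at 0.39 ± 0.35, Tgfb2 at -0.24 ± 0.27 and Tgfb3 at 0.09 ± 0.30, and Ltbp1, Ltbp2 and Ltbp3 at -0.27 ± 0.23, -0.54 ± 0.60 and 0.19 ± 0.31. Standard errors of this size leave room for differences that these 5 libraries could not show.

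**Figure D4:**
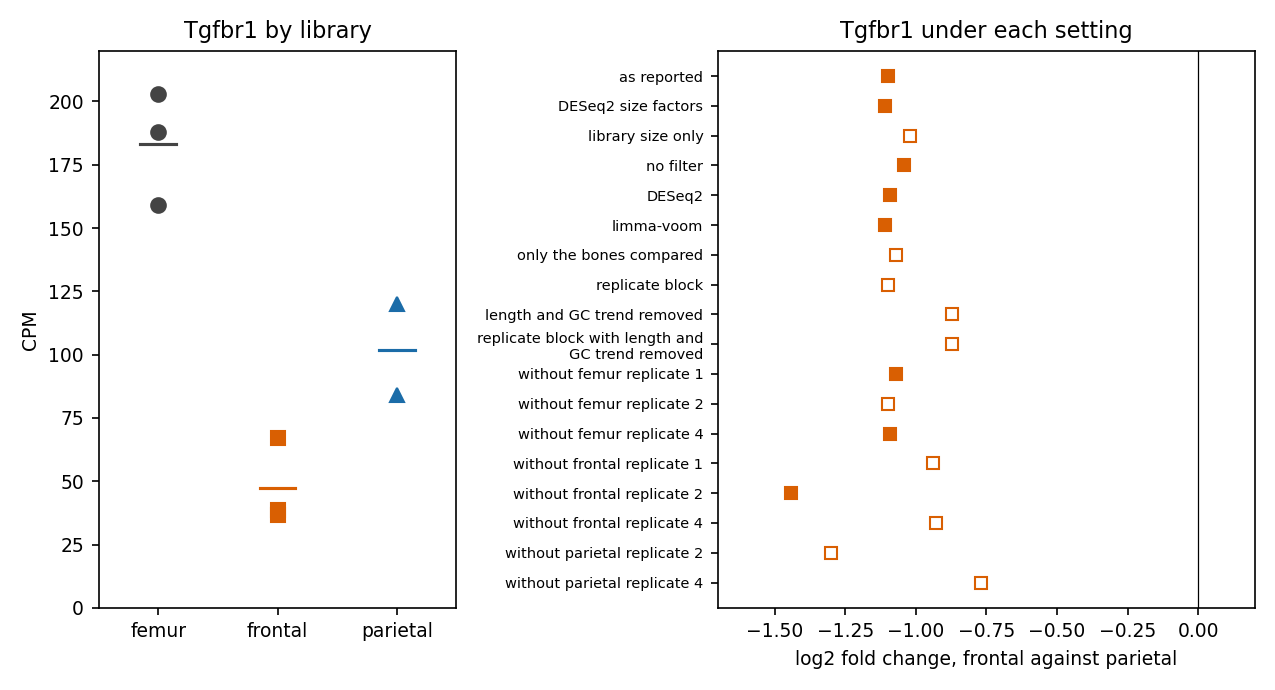
Left, Tgfbr1 in each library in CPM with group means as short lines; right, its log2 fold change of frontal against parietal bone as reported and under each other setting, filled where the adjusted p is under 0.05. All values are between -1.44 and -0.77, and 10 of the 17 alternatives are open symbols.

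Genes that act with these components outside the cell were mostly lower in calvaria as well. Of 17 listed partners and activators of the latent complex, 16 were tested: 13 were lower in calvaria, 2 did not pass and 1 was higher, and the median log2 fold change was -1.49, beside 0.01 for all genes tested, 31.4% of which were lower. Fn1, whose product fibronectin is a fibre to which LTBP1 is attached, fell from 228 ± 27.2 CPM (SD, n = 3) in femur to 76.4 ± 15.1 CPM (n = 5) in calvaria (log2 -1.64 ± 0.12). Itgav, the alpha V integrin subunit that pulls on the latency-associated peptide, was at 256 ± 53.2 and 61.7 ± 10.1 CPM (-2.03 ± 0.15). Mmp14, a membrane-bound metalloproteinase able to release latent TGF-beta, was at 414 ± 16.8 and 76.0 ± 9.70 CPM (-2.45 ± 0.12).

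The member of that list that moved the other way was Nrros, whose product tethers latent TGF-beta 1 on macrophages and microglia in place of an LTBP. It was at 62.0 ± 10.3 CPM in femur and 106 ± 21.0 CPM in calvaria, with no overlap (log2 0.70 ± 0.13, edgeR adjusted p = 7.65e-04). Monocyte and macrophage markers moved with it: 5 of 7 were higher in calvaria, as were 29.6% of all genes tested. The summed level of these markers was 2867 to 5528 CPM in femur and 11765 to 17471 CPM in calvaria. Their part in the Nrros value was not tested.

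Of 4 small leucine-rich proteoglycans that bind TGF-beta in matrix, 3 were lower in calvaria, as were 31.4% of all genes tested. The other, Dcn (decorin), did not pass. Bgn, the gene of biglycan, was at 774 ± 135 CPM in femur and 252 ± 9.09 CPM in calvaria (-1.62 ± 0.12). Fmod, the gene of fibromodulin, was at 44.9 ± 11.8 and 5.32 ± 3.05 CPM (-3.14 ± 0.33). For Aspn, the gene of asporin, the libraries of the groups overlapped, at 16.1 to 50.8 and 5.53 to 21.1 CPM, although it passed (-1.68 ± 0.43, edgeR adjusted p = 0.00692).

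At the receptor level the picture was mixed. Of 12 listed accessory receptors and receptor regulators, 11 were tested, of which 6 were lower, 1 was higher and 4 did not pass, with a median of -0.89. Of all genes tested, 31.4% were lower and 29.6% higher. Cd109, a GPI-anchored protein that binds TGF-beta and dampens its signal, fell from 377 ± 145 to 36.6 ± 16.8 CPM (-3.34 ± 0.29). Bambi, a pseudoreceptor without kinase activity, was at 170 ± 6.50 and 61.4 ± 22.6 CPM (-1.44 ± 0.12), and Smurf1, a ubiquitin ligase of receptors and SMADs, at 50.8 ± 4.83 and 15.7 ± 2.88 CPM (-1.73 ± 0.16). The gene that rose was Usp15, a deubiquitinase that stabilizes TGFBR1, at 202 ± 5.05 CPM in femur and 301 ± 47.4 CPM in calvaria (0.59 ± 0.11, edgeR adjusted p = 8.11e-04).

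Inside the cell, all 4 listed transducers (Smad2, Smad3, Smad4 and the SMAD corepressor Ski) were lower in calvaria, with a median of -1.68. Of all genes tested, 31.4% were lower. Smad3 fell from 80.3 ± 6.58 to 16.9 ± 2.56 CPM (-2.26 ± 0.14), Smad4, the shared partner of receptor-activated SMADs, from 114 ± 11.9 to 54.0 ± 7.21 CPM (-1.10 ± 0.13), and Ski from 150 ± 19.9 to 28.1 ± 10.7 CPM (-2.52 ± 0.19). Smad2, the other receptor-activated SMAD of this pathway, was at 67.3 ± 1.60 and 49.7 ± 4.99 CPM, with a log2 fold change of -0.44 ± 0.12 (edgeR adjusted p = 0.00711).

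Of 14 known TGF-beta target genes, 13 were lower in calvaria and 1, Tgfbi, did not pass, with a median of -1.68. Of all genes tested, 31.4% were lower. Pmepa1, a negative regulator induced by the pathway, fell from 368 ± 60.7 to 22.2 ± 3.21 CPM (-4.05 ± 0.16), and Smad7, the inhibitory SMAD, from 109 ± 13.0 to 14.0 ± 2.38 CPM (-2.96 ± 0.16). Ccn2, the gene of connective tissue growth factor, was at 1554 ± 192 and 505 ± 36.1 CPM (-1.62 ± 0.12). Fn1 and Ltbp2, described above, are also on this list. Taken against femur separately, frontal and parietal bone had 13 and 12 lower genes among the partners and activators, 4 and 3 among the proteoglycans, 7 and 6 among the accessory receptors and regulators, 4 and 4 among the transducers and 12 and 12 among the targets. Of all genes tested, 28.5% were lower in frontal and 28.6% in parietal bone. Tgfbi, the gene of a matrix protein, was higher in frontal bone than in femur (0.33 ± 0.12, edgeR adjusted p = 0.0366), which was noticed after its value was seen. Between the skull bones 3 of 48 distinct tested genes of the 5 lists passed, or 6.25%, near the 7.21% of all genes, and no gene was called there with the replicate number as a block. All 3 were lower in frontal bone: Bambi (-0.90 ± 0.15), Dcn (-1.19 ± 0.29) and Timp1 (-0.89 ± 0.15), with edgeR adjusted p of 0.0272, 0.0401 and 0.0272. Dcn and Timp1 were named after their values were seen. Bambi was named above by rule, and its value between the skull bones was picked out after it was seen. Several list members, among them Col1a1, Bgn and Fmod, are also genes of bone and connective tissue matrix.

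**Figure D5:**
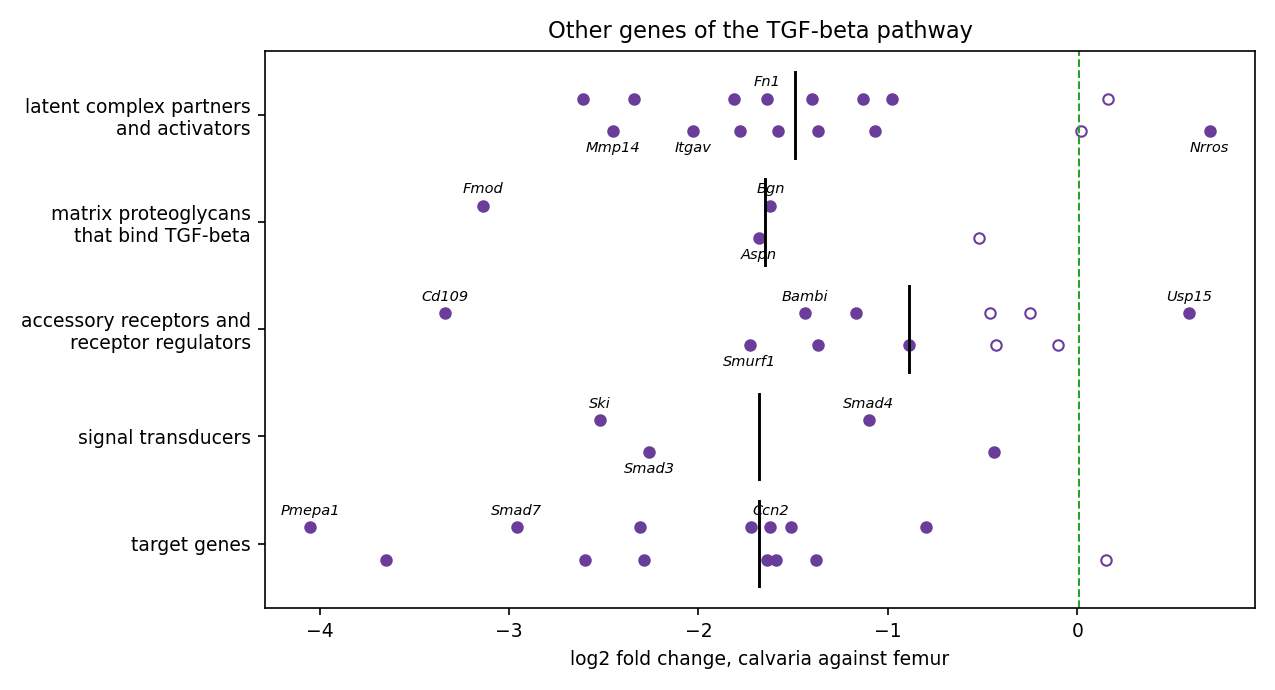
Log2 fold change of calvaria against femur for the tested genes of 5 lists of the TGF-beta pathway; filled points passed at an adjusted p under 0.05, black lines are list medians and the dashed line is the median of all genes tested. Medians lie between -1.68 and -0.89, and Nrros and Usp15 are the filled points above 0.

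Markers of bone cells differed between the groups in the same direction as the 10 genes. Of 7 osteocyte markers, 6 were lower in calvaria (median -3.76), and 5 of 6 osteoblast markers were (median -1.68), beside 31.4% of all genes tested. Summed osteoblast markers were at 20969 to 29340 CPM in femur and 2119 to 12131 CPM in calvaria. Col1a1 made up most of this sum, with a mean of 20857 of 24028 CPM in femur and 4232 of 6407 CPM in calvaria. Its frontal libraries ranged from 834 to 9916 CPM. Single osteocyte markers ran from -6.04 (Dmp1) to -0.63 (Fgf23, not called). The medians of the 10 genes by role were -3.36 for ligands, -3.74 for LTBP genes and -1.23 for receptors. The part of the osteocyte and osteoblast content in the values of the 10 genes was not tested.

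Other cell types of the fractions moved with the bones too. Chondrocyte markers summed to 239 to 790 CPM in femur and 2.63 to 13.8 CPM in calvaria, carried by Col2a1 at 557 ± 290 and 6.37 ± 3.86 CPM, and 2 of 4 tested were lower. All 6 endothelial markers were lower (476 to 591 CPM in femur, 207 to 271 CPM in calvaria), as were 3 of 4 smooth muscle and pericyte markers (275 to 532 and 35.6 to 71.6 CPM). Among all genes tested, 31.4% were called lower and 29.6% higher in calvaria. Erythroid markers were higher in 7 of 7, granulocyte markers in 6 of 9, B cell markers in 5 of 5, T and NK cell markers in 5 of 5, osteoclast markers in 5 of 6, and megakaryocyte and platelet markers in 3 of 7, with none of these lists having a member called lower. The part of these cell types in the values of the 10 genes was not tested. Of the lists of tendon, marrow stroma and adipocyte, and skeletal muscle genes, 1 of 4, 1 of 4 and 0 of 2 tested members were lower and 0, 2 and 1 higher.

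The genes most like each of the 10 were found by the root mean square difference of log2 CPM over the 8 libraries, after removal of each gene's mean. Within the set, the closest pair was Tgfb3 and Ltbp1, at 0.34, and Ltbp1 was also the nearest member to Tgfb2 (0.39) and Ltbp3 (0.44). Tgfb3 was nearest to Tgfb1 (0.45) and Ltbp4 (0.49). Tgfbr2 was nearest to both Tgfbr1 (0.47) and Tgfbr3 (0.40). The distance for Tgfbr3 exceeds that gene's own spread of 0.30, so a flat profile would lie nearer to it than Tgfbr2 does. Ltbp2, with 1 count in frontal library 1, was the least like any other, at 0.91 from Ltbp3. This measure takes in the size of the changes as well as their pattern.

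Genes outside the set came closer in each case, which is likely when 13487 genes are searched and few are members. The nearest member stood between place 36 (for Ltbp3) and place 3355 (for Tgfbr3). The nearest to Tgfb1 were Dmpk (0.17) and Sorbs3 (0.21), to Tgfb2 Htra1 (0.19) and Gabra3 (0.20), and to Tgfb3 Otud1 (0.19) and Kdm1a (0.20). Cped1 and Zfp655 (0.16 each) were nearest to Tgfbr1, Tubb6 (0.06) and Hspa5 (0.07) to Tgfbr2, and Kdm7a (0.06) and Usp37 (0.07) to Tgfbr3. For the LTBP genes they were Spred1 (0.16) and Magi1 (0.17) for Ltbp1, Aplp1 (0.30) and Apln (0.40) for Ltbp2, Pcsk6 (0.19) and Tpbg (0.22) for Ltbp3, and Abtb2 (0.19) and Pcdh1 (0.22) for Ltbp4. These profiles are dominated by the step between femur and calvaria, which many genes share.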

How the data were processed

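RNA was measured in 8 libraries of 3 bones. The authors deposited raw counts per gene (43346 genes and 92 spike-in rows), and these whole-number counts alone were used; a filtered copy and a scaled table were not. The submitters' processing notes name STAR 2.5.2a, DESeq2, edgeR, limma, GRCm38.p3 and mm10. How reads were counted, on which annotation and with what strand setting, is not given in the sources used here, so reads of overlapping antisense genes cannot be separated. Paired reads of 37 bases came from Nextera XT libraries, per the labels' protocols.

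Counts were tested with edgeR 4.0.16 (R 4.3.3): filterByExpr by bone, TMM scaling, and a robust quasi-likelihood fit of 3 bones over 8 libraries, with 5 residual degrees of freedom, with Benjamini-Hochberg adjustment over the 15511 genes kept and calls at under 0.05. CPM are on the TMM scale. Exon lengths, GC content and positions come from GENCODE M21 (GRCm38), which may differ from the annotation behind the counts. Libraries of the same bone all differed by more than sampling noise (lowest chi-square per df, 7.16). The fit was tested on simulated data.

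The genes, the 5 pathway lists and 15 marker lists were chosen with earlier results of these data known. Named genes are the 10 members, the 3 with the smallest p of each pathway list and up to 2 that passed against their list. Dcn, Smad2, Tgfbi, Timp1 and Col1a1 were named after their values were seen. Of the markers, Dmp1, Fgf23 and Col2a1 were singled out in the same way. Scaling, filtering, tools, library subsets, a replicate block, and length and GC trends (DESeq2 1.42.0, limma 3.58.1, mgcv 1.9.3) were varied. Spike-ins (0.0286 to 0.1759% of counts) were left out.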

Additional observations from a re-analysis of the deposited data

Results flagged for a closer look

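Tgfbr1, the type I receptor gene, was called different between the skull bones in its distance from femur, but this call was not stable. Frontal bone was 1.94 and parietal bone 0.84 below femur on the log2 scale (-1.94 ± 0.23 and -0.84 ± 0.26), and the test of the difference itself, frontal against parietal, gave -1.10 ± 0.25 (edgeR adjusted p = 0.033). All 3 frontal libraries lay below both parietal libraries, as they also did for Tgfbr2, and the share of all genes separated in this way was not counted. Tgfbr1 was the only 1 of the 10 genes called between the skull bones, a count near the share of all genes tested that were called there, 7.21%. The call was lost without femur library 2, without frontal library 1 or 4, and without parietal library 2 or 4, each left out in turn. It was also lost with the replicate number as a block (adjusted p = 0.103, or 0.175 with length and GC trends removed as well), with library size only (0.0509), in a fit of the skull bones alone (0.0571) and with the trends removed (0.0695).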

How the results depend on the processing

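Against femur, the 3 comparisons gave 500 values of single genes under the alternatives, of which 11 lost their call and none changed sign; those 11 were of Tgfbr3 and Tgfbr1. The counts of genes changed against femur stayed within 1.5 times. With the replicate number as a block, 10, 10 and 9 members were called for calvaria, frontal and parietal bone, as without it. Between frontal and parietal bone, where 1 member and 1118 genes were called, the replicate block left 0 members and 0 genes by edgeR, with 3504 genes at an unadjusted p under 0.05, and it left 0 and 0 with length and GC trends removed as well (2632 genes). Those trends alone left 0 members and 96 genes. Members called were 0 with library size only and with the skull bones alone. Without a filter 1904 genes were called, and with DESeq2 2039. With library size only, 24.4% of the genes called between the skull bones were lower in frontal bone, against 45.7%, and the median of all genes moved from 0.024 to 0.158 for frontal bone against femur. Leaving out 1 library gave 0 to 1 members and 0 to 1963 genes; 0 genes were called by edgeR without femur library 2, without frontal library 1 and without either parietal library, where 4059, 3061, 3165 and 2520 genes had an unadjusted p under 0.05. A parietal library left alone was assumed to vary like the other bones.

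Values that changed sign, none of them called, were all between frontal and parietal bone. Tgfb1 was at -0.12 with the block and trends removed. Tgfb3 was at -0.14 with the block, -0.14 with trends removed, -0.37 with both, and from -0.01 (without frontal library 1) to 0.25 with 1 library left out. Ltbp3 was at -0.18 with trends removed, -0.19 with both, and from -0.33 (without frontal library 2) to 0.43 with 1 library left out. The cause of these changes was not tested. Libraries of the same number had correlations of -0.103 to 0.145 over 7 pairs, and libraries of other numbers -0.145 to 0.172. Each bone's mean was subtracted first, which makes the 2 parietal libraries mirror images. These values therefore cannot show whether the numbers pair the libraries. The main fit did not pair them. Depth limits Ltbp2 most, with 1 to 37 counts in a calvarial library.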
